A study of Saccharomyces cerevisiae with 25 samples.

Results

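Budding yeast, Saccharomyces cerevisiae, deprived of phosphate for 165, 180 and 195 min was compared with the same yeast deprived for 105, 120 and 135 min. Both groups have 3 libraries, out of 25 sequenced over 6 hours, and the sample at 150 min lies between them. All cells came from the background BY4741, a haploid laboratory strain of mating type a, and carried pho84pr-YFP, a fluorescent reporter behind the PHO84 promoter, together with phm3 damp. PHM3 is an older name of VTC4, a subunit of the vacuolar enzyme that makes polyphosphate, and a DAmP allele disturbs the end of a transcript, which usually lowers its amount. Libraries from a strain without this allele were not analysed here, so both groups share it. Every cell had grown in medium rich in phosphate before it was washed into medium without any. Genes were included when they had a name and a value in at least 2 libraries of each group, which 5327 of 6648 named genes did, and 4934 of these had a value in all 6 libraries. Levels are log2 RPM, the logarithm of a gene's reads per 1000000 reads of its library, and a gene with fewer than 10 reads in a library has no value there.

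The libraries held 0.837 to 2.147 M reads at 165 to 195 min and 1.049 to 4.263 M reads at 105 to 135 min. A group consists of consecutive time points, and the labels name no separate cultures. The p-values below therefore set differences against the scatter of neighbouring samples, which may be technical and includes real change within a group. The 120 min library stood apart from the other 5. There, ADA2, a subunit of a histone acetyltransferase complex, was at 8.92 log2 RPM, against 10.74 to 11.29 log2 RPM in the others, and 266 genes lay at least 1 log2 unit from the mean of its group's other libraries, against 9 to 156 genes for the other 5. Counts of changed genes are therefore also given without it. Transcripts of mating type a, STE2, MFA1, MFA2, BAR1, STE6 and AGA2, were listed in all 6 libraries at 5.75 to 10.80 log2 RPM. Of the transcripts of the opposite mating type, STE3 was listed in all 6 at 4.72 to 5.28, SAG1 in all 6 at 2.77 to 4.11, MF(ALPHA)1 in 4 at 2.61 to 3.25, and MF(ALPHA)2 in none. HIS3, LEU2 and MET17, which BY4741 lacks, were listed in none, and URA3, which it lacks too, was listed in 5 at 2.57 to 3.72 log2 RPM. These are RNA levels of whole cultures, in which fewer cells of a kind and less RNA per cell cannot be told apart.

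When phosphate runs short, the inhibitor Pho81 blocks the kinase complex of Pho80 and Pho85, and the transcription factor Pho4 then stays in the nucleus. With Pho2 it activates the PHO regulon, whose products take phosphate up, free it from organic compounds, and store or release polyphosphate. Lack of a nutrient also lowers signalling through the kinases TORC1 and PKA, which is known to raise genes of the general stress response through Msn2 and Msn4 and to lower genes that make ribosomes.

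The DNA ahead of many such genes holds letters through which such factors are known to bind, and the windows of 8 genes are printed first as examples. Each covers 300 bases that begin 400 bases before the coding start, read from the R64 genome 5′ to 3′ on the strand of the gene, and all windows of this kind among tested genes with coordinates (5192) gave the background. Capitals mark CACGTG or CACGTT (the sites of Pho4) in PHO5, PHM8 and SPL2, AGGGG (the stress response element) in PGM2 and CTT1, GATGAG (PAC) and AAAAATTT (RRPE) in NSR1 and HAS1, and GATAAG (the site of GATA factors) in GAP1. Both strands were searched. All 8 of these windows hold such letters, which is not so for every gene. GATGAG was in 60.1% of ribosome biogenesis windows, and CACGTG was in the windows of 6 of the 10 PHO regulon genes called higher. The windows lie at chrII:431052-431351 (minus strand) for PHO5, chrV:225489-225788 (plus strand) for PHM8, chrVIII:375201-375500 (minus strand) for SPL2, chrXIII:477707-478006 (minus strand) for PGM2, chrVII:654234-654533 (plus strand) for CTT1, chrVII:807757-808056 (minus strand) for NSR1, chrXIII:851692-851991 (minus strand) for HAS1 and chrXI:514663-514962 (plus strand) for GAP1.
PHO5: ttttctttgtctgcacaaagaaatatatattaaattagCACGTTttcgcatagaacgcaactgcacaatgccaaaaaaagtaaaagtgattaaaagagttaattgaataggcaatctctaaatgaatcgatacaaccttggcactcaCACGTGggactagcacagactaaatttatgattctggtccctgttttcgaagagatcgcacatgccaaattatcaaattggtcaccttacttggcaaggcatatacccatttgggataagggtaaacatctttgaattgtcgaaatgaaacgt
PHM8: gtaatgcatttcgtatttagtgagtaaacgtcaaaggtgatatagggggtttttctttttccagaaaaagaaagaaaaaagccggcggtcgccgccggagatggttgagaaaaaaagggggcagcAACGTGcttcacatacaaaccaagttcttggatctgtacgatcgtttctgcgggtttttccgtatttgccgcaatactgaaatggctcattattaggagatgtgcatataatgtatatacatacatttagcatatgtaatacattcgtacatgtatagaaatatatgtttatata
SPL2: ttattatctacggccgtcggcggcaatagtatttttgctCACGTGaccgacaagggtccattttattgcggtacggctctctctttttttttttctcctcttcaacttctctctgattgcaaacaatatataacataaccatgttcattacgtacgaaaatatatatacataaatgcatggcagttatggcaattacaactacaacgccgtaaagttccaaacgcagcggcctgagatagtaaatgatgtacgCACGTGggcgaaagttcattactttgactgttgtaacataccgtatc
PGM2: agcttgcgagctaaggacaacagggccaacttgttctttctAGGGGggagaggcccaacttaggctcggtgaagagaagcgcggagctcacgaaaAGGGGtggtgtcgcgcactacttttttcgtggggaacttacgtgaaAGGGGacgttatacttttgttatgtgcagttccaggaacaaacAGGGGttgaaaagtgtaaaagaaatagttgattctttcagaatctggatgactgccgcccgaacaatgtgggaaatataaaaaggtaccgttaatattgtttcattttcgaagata
CTT1: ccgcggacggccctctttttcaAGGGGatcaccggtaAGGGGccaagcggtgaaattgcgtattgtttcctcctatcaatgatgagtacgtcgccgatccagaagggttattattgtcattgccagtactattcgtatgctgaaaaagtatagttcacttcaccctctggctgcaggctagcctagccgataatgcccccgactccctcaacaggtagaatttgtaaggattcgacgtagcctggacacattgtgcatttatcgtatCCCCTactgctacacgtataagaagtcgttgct
NSR1: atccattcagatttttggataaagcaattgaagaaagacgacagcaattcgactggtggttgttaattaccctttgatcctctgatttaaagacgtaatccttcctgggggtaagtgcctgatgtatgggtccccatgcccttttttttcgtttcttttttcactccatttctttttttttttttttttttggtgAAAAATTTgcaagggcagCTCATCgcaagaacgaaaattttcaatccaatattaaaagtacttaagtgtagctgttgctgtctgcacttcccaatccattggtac
HAS1: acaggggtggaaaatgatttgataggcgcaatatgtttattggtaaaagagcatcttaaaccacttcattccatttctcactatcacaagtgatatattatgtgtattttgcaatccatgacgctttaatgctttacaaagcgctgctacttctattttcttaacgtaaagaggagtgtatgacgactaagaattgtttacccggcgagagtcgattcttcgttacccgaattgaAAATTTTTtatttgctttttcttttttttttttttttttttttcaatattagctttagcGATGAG
GAP1: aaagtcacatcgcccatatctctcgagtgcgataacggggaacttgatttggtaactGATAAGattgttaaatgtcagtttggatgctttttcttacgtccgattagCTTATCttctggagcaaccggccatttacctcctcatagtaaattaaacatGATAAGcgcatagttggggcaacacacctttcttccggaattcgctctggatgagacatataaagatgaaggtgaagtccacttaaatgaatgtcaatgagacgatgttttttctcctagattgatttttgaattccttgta
PHO5 and SPL2 had 2 capital runs each, PHM8 had 1, PGM2 had 4, CTT1 and GAP1 had 3, and NSR1 and HAS1 had 2.

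Such letters were unevenly spread over the changed genes, to differing degrees. AGGGG was in 52.6% of the windows of genes called higher at 165 to 195 min and in 18.2% of those called lower, against 24.1% of all windows. AAAAATTT was in 50% of the windows of genes called lower and GATGAG in 40.9%, against 15.9% and 18.2% of all windows. Genes called higher held CACGTG in 8.68% of their windows, CACGTT in 13.2% and GATAAG in 16.8%. Genes called lower held these in 2.08, 7.81 and 8.33%, against 4.58, 9.94 and 14% of all windows. Among the gene lists, AGGGG was in 81.0% of the windows of stress genes, AAAAATTT in 74.6% of those of ribosome biogenesis genes, CACGTG in 68.4% of those of the PHO regulon and GATAAG in 64.9% of those of genes under nitrogen control. Of all windows, 4.58% held CACGTG and 14% held GATAAG. The letters are not particular to these lists. CACGTG was also in 54.55% of the windows of sulfur, methionine and S-adenosylmethionine genes, AAAAATTT in 72.1% of those of translation factors and AGGGG in 81.8% of those of vacuolar proteases and inhibitors. A match in a window is a description of its letters and says nothing of binding in these cells.

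Between the groups, 595 of the 5327 genes rose (11.2%) and 387 fell (7.26%). A gene was called when its Benjamini-Hochberg adjusted p from limma was under 0.05 and its log2 difference, 165-195 min minus 105-135 min, was at least 1 in size, a doubling or halving. The median of all differences was 0.32. RPM is a share of the library, and the abundant ribosomal protein transcripts took up 11.1% ± 3.48 of the reads at 165 to 195 min and 31.8% ± 0.988 at 105 to 135 min (SD, n = 3 each). After each library was centred on its median, 339 genes were called higher (6.36%) and 508 lower (9.54%), and these held all 387 falls and 339 of the 595 rises. Centring lowers the difference of every gene with 6 values by the same amount, PGM2 from 3.51 to 3.24 and RKI1 from -2.41 to -2.68. Keeping the falls and losing rises therefore largely follows from this shift, here and in the lists below, and is no separate check. A gene may belong to several of the lists described below. Without the 120 min library, 448 were called higher (8.88%) and 359 lower (7.12%) of 5045 tested, 419 and 346 of them shared with the full comparison. The called rises had a median of 1.38 log2 units and 82 of them reached 2. The called falls had a median of -1.53 and 29 reached -2. All 3 libraries at 165 to 195 min lay above all 3 at 105 to 135 min for 2083 of the 4934 genes with 6 values (42.2%) and below them for 739 (15.0%). Groups without overlap, mentioned for single genes below, were therefore common and set no gene apart by themselves.

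**Figure D1:**
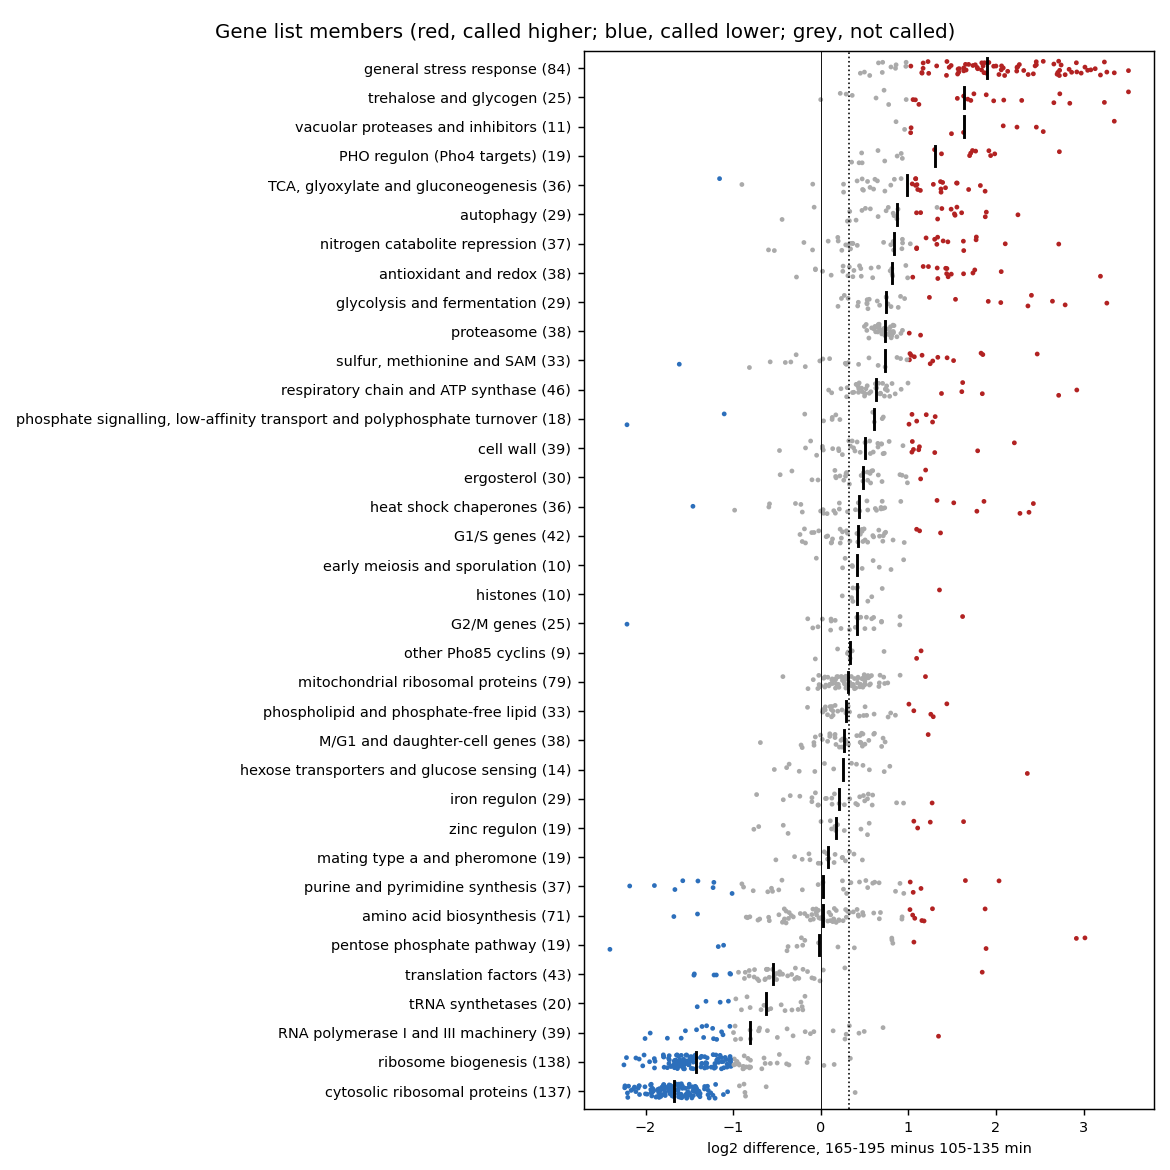
Log2 differences (165-195 min minus 105-135 min) of the tested members of each gene list, 1 point a gene, with list sizes in parentheses, the list median as a black bar and the median of all tested genes as a dotted line at 0.32. Stress genes (84 tested, median 1.90) lie at the top and cytosolic ribosomal proteins (137 tested, median -1.68) at the bottom.

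The calling limit of 1 log2 unit divided the PHO regulon into genes that at least doubled and genes with smaller differences. KCS1, at 1.30 log2 units, was the lowest above this limit and VTC4, at 0.93, the highest below it. Of 22 listed genes 19 were tested, 10 were called higher and none lower, and the median difference was 1.30 log2 units, or 0.98 above the median of all genes. The same 10 were called after centring, and 10 were called without the 120 min library. Together the regulon's transcripts made up 2.11, 2.36 and 2.38% of the reads at 165, 180 and 195 min, against 0.786, 0.94 and 1.21% at 105, 120 and 135 min. The groups do not overlap, and an exact permutation test gave p = 0.1, the smallest that 3 libraries against 3 allow (two-sided).

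The phosphatases and the genes that release phosphate from organic compounds were among the 10 that rose. PHM8, a phosphatase for nucleotides and lysophosphatidic acid (chromosome V, 225889 to 226854, plus strand), had 9.02, 9.45 and 9.65 log2 RPM at 165, 180 and 195 min, against 6.26, 6.22 and 7.47 log2 RPM at 105, 120 and 135 min. Its lowest level at 165 to 195 min was above its highest at 105 to 135 min, where 135 min was the highest, and it rose 6.61-fold (log2 difference 2.72 ± 0.30 SE, limma adjusted p = 7.73e-05). PHO5, the main secreted acid phosphatase (chromosome II, 429548 to 430951, minus strand), had 11.91, 12.22 and 12.23 log2 RPM at 165, 180 and 195 min, against 9.80, 9.96 and 10.65 log2 RPM at 105, 120 and 135 min, again without overlap, and rose 3.96-fold (log2 difference 1.99 ± 0.24 SE, limma adjusted p = 0.000125). PHO11 and PHO12, near-identical secreted acid phosphatases, rose by 1.77 and 1.38 log2 units (limma adjusted p = 0.000233 and 0.000936). No value of PHO5, PHO11 or PHO12 corresponded to a whole number of reads, so reads of these near copies may have been divided between genes, and each one's own level is uncertain. PHO8, the vacuolar alkaline phosphatase, had 7.91, 8.05 and 8.19 log2 RPM at 165, 180 and 195 min, against 6.47, 5.59 and 6.99 log2 RPM at 105, 120 and 135 min. It rose 3.25-fold (log2 difference 1.70 ± 0.28 SE, limma adjusted p = 0.000726), and its 120 min level was the lowest of the 6. GDE1, which releases phosphate from glycerophosphocholine, had 7.86, 8.14 and 7.87 log2 RPM at 165, 180 and 195 min, against 5.88, 6.09 and 6.76 log2 RPM at 105, 120 and 135 min. It rose 3.28-fold (log2 difference 1.71 ± 0.21 SE, limma adjusted p = 0.00015), with 165 and 195 min at nearly the same level. HOR2, a phosphatase that makes glycerol, rose 3.32-fold (log2 difference 1.73 ± 0.19 SE, limma adjusted p = 8.83e-05).

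A transporter, a kinase and a gene of unknown role complete the group that rose. PHO89, a sodium-coupled high-affinity phosphate transporter (chromosome II, 796798 to 798522, minus strand), had 8.84, 8.82 and 8.84 log2 RPM at 165, 180 and 195 min, against 6.80, 6.61 and 7.34 log2 RPM at 105, 120 and 135 min. The later libraries were nearly equal and above all earlier ones, and PHO89 rose 3.78-fold (log2 difference 1.92 ± 0.18 SE, limma adjusted p = 5.58e-05). PHM6, a gene of unknown function that follows phosphate, rose 3.84-fold (log2 difference 1.94 ± 0.27 SE, limma adjusted p = 0.000246). KCS1, a kinase that makes inositol pyrophosphates, had 7.47, 7.47 and 7.55 log2 RPM at 165, 180 and 195 min, against 6.12, 6.36 and 6.12 log2 RPM at 105, 120 and 135 min. Its levels varied little within either group, and it rose 2.46-fold (log2 difference 1.30 ± 0.14 SE, limma adjusted p = 7.73e-05).

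The other 9 tested PHO genes did not reach the 1 log2 unit required, although several had small p-values. PHO84, the main high-affinity phosphate transporter (chromosome XIII, 24037 to 25800, minus strand), had 10.23, 10.34 and 10.31 log2 RPM at 165, 180 and 195 min, against 9.24, 9.35 and 9.53 log2 RPM at 105, 120 and 135 min, which do not overlap (log2 difference 0.92 ± 0.15 SE, limma adjusted p = 0.000648). A non-coding gene, YNCM0001W, is annotated across it, which leaves part of these reads uncertain. SPL2, which restrains low-affinity phosphate uptake (chromosome VIII, 374654 to 375100, minus strand), had 9.41, 9.44 and 9.65 log2 RPM at 165, 180 and 195 min, against 8.36, 9.37 and 9.36 log2 RPM at 105, 120 and 135 min (log2 difference 0.47 ± 0.24 SE, limma adjusted p = 0.142). Only its 105 min level lay well below the rest. PHO81, the inhibitor that starts the response, had 7.98, 8.07 and 8.18 log2 RPM at 165, 180 and 195 min, against 7.47, 7.84 and 7.87 log2 RPM at 105, 120 and 135 min (log2 difference 0.35 ± 0.15 SE, limma adjusted p = 0.083), with neighbouring samples close in level. Of the polyphosphate polymerase, VTC1 had a log2 difference of 0.73, VTC3 of 0.65 and VTC2 of 0.44 (limma adjusted p = 0.0141, 0.0148 and 0.0417). VTC4 (chromosome X, 411234 to 413399, minus strand), whose transcript the DAmP allele disturbs, had 7.28, 7.41 and 7.73 log2 RPM at 165, 180 and 195 min, against 6.64, 5.87 and 7.11 log2 RPM at 105, 120 and 135 min (log2 difference 0.93 ± 0.27 SE, limma adjusted p = 0.0162). Its 120 min level was the lowest of the 25 libraries, and without that library the log2 difference was 0.60. PPN1, which degrades polyphosphate, had a log2 difference of 0.87 and PHO86, which helps Pho84 leave the endoplasmic reticulum, of 0.47 (limma adjusted p = 0.000555 and 0.0512).

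Both groups of PHO genes were set along the whole time course. Relative to their own mean at 105 to 135 min, the 9 genes not called had a median of -1.55 log2 units at 0 min, -0.32 at 15 min and 0.08 at 30 min. The 10 called genes had medians of -1.28 at 0 min, -0.82 at 15 min, -0.16 at 30 min and 0.49 at 60 min. At 150 min the called genes were at 1.22 and the others at 0.41, and from 210 to 360 min the called genes lay between 1.85 and 2.22 and the others between 0.65 and 0.97. At 135 min the called genes were at 0.53 and at 195 min at 1.78, and the others were at 0.24 and 0.63. The called and the uncalled genes are chosen here by the comparison itself. Every value is also relative to the 105 to 135 min mean that entered this choice. The differences between the 2 sets are therefore a description at all times, those before 105 and after 195 min included. In the promoter windows, CACGTG was in 6 of the 10 called genes and 7 of the 9 others, of which 3 had it at least 2 times. CACGTT was in 4 of the 10 and 2 of the 9, and AGGGG in 4 of the 10 and 0 of the 9.

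**Figure D2:**
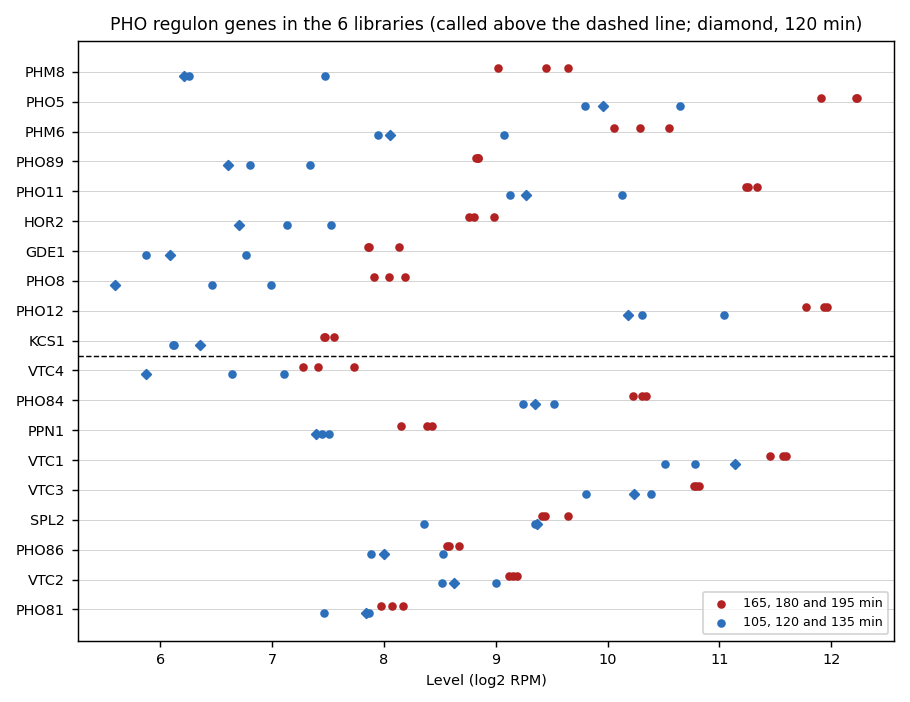
Level (log2 RPM) of the 19 tested PHO regulon genes in the 3 libraries at 165, 180 and 195 min (red) and at 105, 120 and 135 min (blue, the diamond is 120 min), with the 10 called genes above the dashed line. The gap between the groups is widest for PHM8 (2.72 log2 units) and narrowest for PHO81 (0.35).

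Further PHO genes had too few values for a test. GIT1, a transporter of glycerophosphoinositol, had 5.13, 5.34 and 5.43 log2 RPM at 165, 180 and 195 min, and between 105 and 135 min it was listed only at 120 min, at 1.49. PHM7, a membrane protein, had 3.11, 3.76 and 4.34 log2 RPM at 165, 180 and 195 min and fewer than 10 reads in each library at 105 to 135 min. Its mean on the log2 scale was at least 2.99-fold above the mean of these 3 libraries' limits of 10 reads, although its level at 165 min was below the highest limit, 3.25 log2 RPM at 135 min. The third untested gene, CTF19, a kinetochore protein, had no value in any of the 6 libraries.

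Genes of phosphate signalling, low-affinity transport and polyphosphate turnover outside the PHO regulon were mixed. Of 18 tested, 6 were called higher and 2 lower, and after centring 2 were higher, against 1 without the 120 min library, with 2 lower in both. Without the 180 min library 3 were higher and 1 lower. PHO3, a constitutive acid phosphatase next to PHO5 (chromosome II, 427698 to 429101, minus strand), had 5.79, 5.32 and 5.46 log2 RPM at 165, 180 and 195 min, against 7.81, 8.05 and 7.35 log2 RPM at 105, 120 and 135 min. It fell 4.64-fold (log2 difference -2.21 ± 0.20 SE, limma adjusted p = 5.51e-05) without overlap, but whole reads made up 17% of its values, and reads shared with its near copy PHO5 leave it uncertain. DDP1, which cleaves inositol pyrophosphates and polyphosphate, rose 2.47-fold (log2 difference 1.31 ± 0.20 SE, limma adjusted p = 0.000397). PHO13, a phosphatase of metabolic by-products, and YDR089W, the VTC complex subunit Vtc5, rose by 1.28 and 1.20 log2 units (limma adjusted p = 0.0088 and 0.00972). PHO4 itself had a log2 difference of 0.71 (limma adjusted p = 0.0159). Outside the rule for naming genes and seen only afterwards, the other called members were PHO90, a low-affinity phosphate transporter, at -1.10, and PHO2, PHO80 and PHO85 at 1.09, 1.04 and 1.01. Of the last 3 none was called after centring. Among 9 other cyclins of Pho85, PCL7 and PCL1 were called higher (1.15 and 1.09), neither of them after centring and 1 of them without the 120 min library.

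The largest rises belonged to the general stress response, the genes that yeast switches on under many stresses through Msn2 and Msn4. Of 84 tested members, 73 were called higher and none lower, with a median of 1.90 (1.58 above the median of all genes), and 64 were higher after centring. Their share of the reads was 4.19, 4.89 and 5.58% at 165, 180 and 195 min, against 1.32, 1.33 and 1.78% at 105, 120 and 135 min, without overlap (exact permutation test, two-sided p = 0.1). CTT1, the cytosolic catalase that destroys hydrogen peroxide (chromosome VII, 654634 to 656322, plus strand), had 6.75, 6.95 and 7.23 log2 RPM at 165, 180 and 195 min, against 3.75, 3.97 and 3.63 log2 RPM at 105, 120 and 135 min. Even its lowest late level was well over its highest early one, and it rose 9.15-fold (log2 difference 3.19 ± 0.20 SE, limma adjusted p = 1.68e-05). HSP12, a small membrane-protecting protein and the most abundant of the 10 largest rises, had 12, 12.64 and 13.07 log2 RPM at 165, 180 and 195 min, against 9.77, 8.87 and 9.83 log2 RPM at 105, 120 and 135 min. It rose 8.47-fold (log2 difference 3.08 ± 0.31 SE, limma adjusted p = 6.27e-05) and stood higher at each later sample. TFS1, an inhibitor of the vacuolar carboxypeptidase Y, rose 10.2-fold (log2 difference 3.35 ± 0.41 SE, limma adjusted p = 0.000127), and its 120 min level of 4.89 was below all others. RTN2, a reticulon that shapes the endoplasmic reticulum, rose 8.77-fold, and MSC1, a protein tied to repair and recombination, rose 8.27-fold (limma adjusted p = 9.27e-05 and 4.69e-05). HSP31 and TRX2, a chaperone-like enzyme and a thioredoxin, were the largest differences in the list that were not called, both at 0.97.

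**Figure D3:**
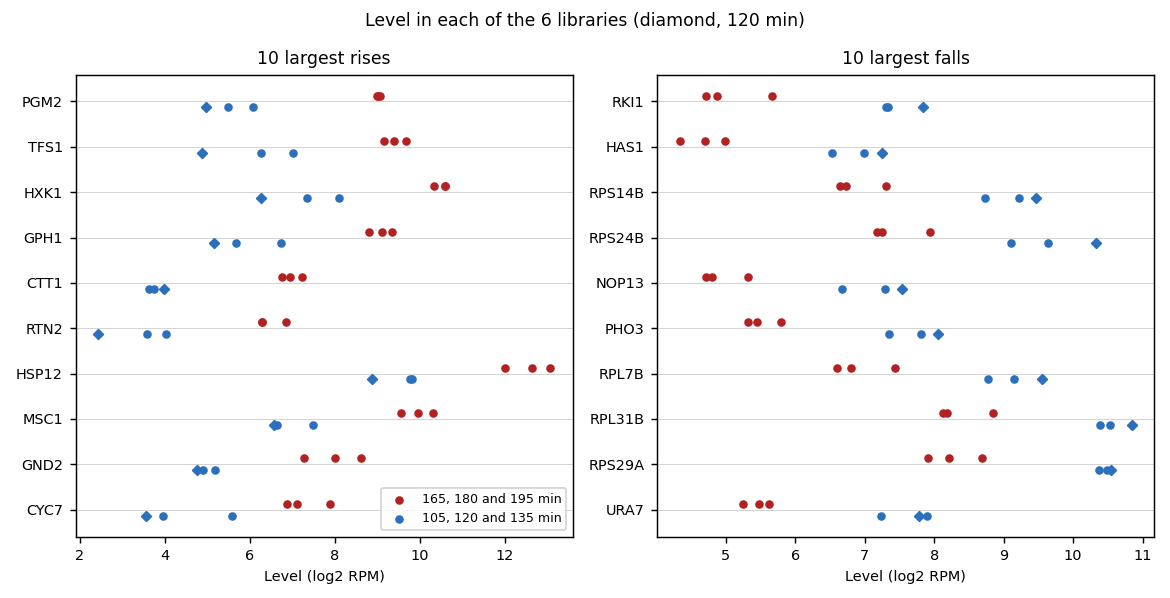
Level (log2 RPM) of the 10 largest called rises (left) and the 10 largest called falls (right) in the libraries at 165, 180 and 195 min (red) and at 105, 120 and 135 min (blue, the diamond is 120 min). In all 20 genes the groups do not overlap, which the choice of genes by size favours. Of all genes with 6 values, 42.2% had all late libraries above all early ones and 15.0% below. For 9 of the 10 rises the 120 min library is the lowest of the 6.

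Chaperones and redox enzymes changed in part. Of 36 heat shock chaperones 7 rose (19.4%) and 1 fell (2.78%), against 11.2% and 7.26% of all tested genes. Without the 165 min or the 135 min library 2 fell. HSP42, a small heat shock protein, had 7.59, 7.33 and 7.61 log2 RPM at 165, 180 and 195 min, against 5.01, 4.61 and 5.63 log2 RPM at 105, 120 and 135 min, and rose 5.38-fold (log2 difference 2.43 ± 0.24 SE, limma adjusted p = 5.88e-05). SSA4, an inducible Hsp70, rose 5.20-fold, HSP104, which dissolves protein aggregates, 4.84-fold, and SSE2, an exchange factor of Hsp70, 3.64-fold (limma adjusted p = 4.69e-05, 0.000499 and 6.79e-05). The member that fell, named after its value was seen, was SSB1, an Hsp70 that works on the ribosome, at -1.46 log2 units. Its near copy SSB2 had a log2 difference of -0.98 and was not called, and none of the values of SSB2 was a whole number of reads. Of 38 antioxidant and redox genes 15 rose (39.5%) and none fell. PRX1, the mitochondrial peroxiredoxin, had 8.25, 8.47 and 8.82 log2 RPM at 165, 180 and 195 min, against 6.35, 6.60 and 6.41 log2 RPM at 105, 120 and 135 min. Its levels within 105 to 135 min were close together, and it rose 4.17-fold (log2 difference 2.06 ± 0.17 SE, limma adjusted p = 4.69e-05). TSA2, another peroxiredoxin, rose 3.38-fold and GTT1, a glutathione transferase, 3.33-fold (limma adjusted p = 0.000228 and 8.92e-05), while the cytochrome c peroxidase gene CCP1 had a log2 difference of 0.99 and was not called.

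Most genes of storage carbohydrates rose. Of 25 tested genes of trehalose and glycogen metabolism 17 were called higher and none lower, with a median of 1.63, and 14 after centring. PGM2, the phosphoglucomutase that links glucose phosphates to glycogen and trehalose (chromosome XIII, 475897 to 477606, minus strand), had 9.0, 9.06 and 9.02 log2 RPM at 165, 180 and 195 min, against 5.49, 4.97 and 6.08 log2 RPM at 105, 120 and 135 min. Its 3 late libraries were nearly equal and far above the early ones, and it had the largest rise of all tested genes with a standard symbol and 6 values, 11.4-fold (log2 difference 3.51 ± 0.23 SE, limma adjusted p = 1.68e-05). GPH1, which breaks glycogen down to glucose phosphate, had 8.81, 9.12 and 9.34 log2 RPM at 165, 180 and 195 min, against 5.67, 5.16 and 6.74 log2 RPM at 105, 120 and 135 min. It rose 9.44-fold (log2 difference 3.24 ± 0.32 SE, limma adjusted p = 5.93e-05). GDB1, the glycogen debranching enzyme, rose 7.18-fold and GLC3, the branching enzyme, 6.63-fold (limma adjusted p = 0.000147 and 6.74e-05), so genes of both synthesis and breakdown were among the rises. PIG2 and GLC8, regulators of the phosphatase Glc7, had log2 differences of 0.98 and 0.77 and were not called.

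Genes of sugar breakdown rose in part, led by the enzymes that phosphorylate glucose. Of 29 genes of glycolysis and fermentation 9 were called higher (31.0%, against 11.2% of all tested genes) and none lower. The list's share of the reads was 13.9, 15.4 and 15.0% at 165, 180 and 195 min, against 9.60, 8.25 and 8.88% at 105, 120 and 135 min (exact permutation test, two-sided p = 0.1). HXK1, the hexokinase used when glucose is low (chromosome VI, 253592 to 255049, minus strand), had 10.60, 10.59 and 10.33 log2 RPM at 165, 180 and 195 min, against 7.35, 6.27 and 8.11 log2 RPM at 105, 120 and 135 min. It rose 9.62-fold (log2 difference 3.27 ± 0.35 SE, limma adjusted p = 7.42e-05). GLK1, the glucokinase, rose 6.92-fold (log2 difference 2.79 ± 0.37 SE, limma adjusted p = 0.000202), and its gene overlaps YCL042W. TDH1 and ENO1, forms of glyceraldehyde phosphate dehydrogenase and enolase, rose 6.26-fold and 5.30-fold (limma adjusted p = 5.93e-05 and 5.51e-05), and both have near copies and few values at whole reads. TDH2 and TPI1 had log2 differences of 0.96 and 0.91 and were not called. Of 14 hexose transporters and glucose sensors only HXT7, a high-affinity transporter with a near copy, was called (7.14%), 5.13-fold higher (limma adjusted p = 0.000123). Without the 135 min library 2 were called.

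The pentose phosphate pathway held some of the largest changes in both directions, with 4 rises (21.05%) and 3 falls (15.8%) among 19 genes and a median of -0.03. Of all tested genes 11.2% rose and 7.26% fell. RKI1, the ribose phosphate isomerase that leads to nucleotide synthesis (chromosome XV, 503552 to 504328, minus strand), had 5.67, 4.87 and 4.72 log2 RPM at 165, 180 and 195 min, against 7.31, 7.84 and 7.34 log2 RPM at 105, 120 and 135 min. It had the largest fall of the genes named by size, 5.31-fold lower (log2 difference -2.41 ± 0.25 SE, limma adjusted p = 6.79e-05). GND2, the minor phosphogluconate dehydrogenase, had 7.27, 8.0 and 8.63 log2 RPM at 165, 180 and 195 min, against 4.89, 4.77 and 5.18 log2 RPM at 105, 120 and 135 min. It rose 8.09-fold (log2 difference 3.02 ± 0.28 SE, limma adjusted p = 5.58e-05) and was higher at each later sample. SOL4, a phosphogluconolactonase, and NQM1, a transaldolase, rose 7.56-fold and 3.70-fold (limma adjusted p = 8.6e-05 and 0.00271), while the main transaldolase TAL1 had a log2 difference of 0.82 and was not called.

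Among genes of mitochondrial energy metabolism, those of the TCA cycle and related pathways held most of the rises. Of 36 genes of the TCA cycle, glyoxylate cycle and gluconeogenesis 18 were called higher and 1 lower, or 2 without the 165 min or the 135 min library. After centring 10 were higher, and without the 120 min library 13. CIT1, the citrate synthase of mitochondria, had 8.25, 8.42 and 8.41 log2 RPM at 165, 180 and 195 min, against 6.77, 5.63 and 7.05 log2 RPM at 105, 120 and 135 min. It rose 3.67-fold (log2 difference 1.88 ± 0.29 SE, limma adjusted p = 0.000522), and without the 120 min library, its lowest, the log2 difference was 1.45. EMI5 (an assembly factor of succinate dehydrogenase), SDH4 and SDH1 (subunits of that enzyme) rose 3.54-fold, 3.22-fold and 2.94-fold (limma adjusted p = 0.000254, 0.00271 and 0.00505). Of 46 respiratory chain and ATP synthase genes 6 rose (13.04%) and none fell, a share of rises near the 11.2% of all tested genes. The 4 largest were CYC7, a minor form of cytochrome c, at 7.59-fold, STF2 and STF1, which bind the ATP synthase or its inhibitor, at 6.57-fold and 3.59-fold, and COX5B, the low-oxygen form of a cytochrome oxidase subunit, at 3.07-fold (limma adjusted p = 0.000435, 5.93e-05, 0.000199 and 8.29e-05). CYT1, the cytochrome c1 of complex III, had a log2 difference of 0.92 and was not called. Of 79 mitochondrial ribosomal proteins only MRPS12 was called (1.20 higher, and not called after centring or without the 120 min library, against 2 called without the 165 min or the 135 min library), and the median of the list was 0.31, close to that of all genes.

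Genes for scavenging nitrogen and for self-digestion rose as well, although the labels name phosphate as the nutrient left out. Of 37 genes under nitrogen catabolite repression 14 were called higher and none lower, with a median of 0.83, and 10 after centring. GAP1, the general amino acid permease (chromosome XI, 515063 to 516871, plus strand), had 8.08, 8.61 and 8.86 log2 RPM at 165, 180 and 195 min, against 5.62, 5.14 and 6.65 log2 RPM at 105, 120 and 135 min. It rose 6.57-fold (log2 difference 2.72 ± 0.33 SE, limma adjusted p = 0.000125) without overlap. MEP2, an ammonium permease, had no value at 135 min and rose 4.31-fold on the remaining 5 libraries (limma adjusted p = 0.00179). UGA2 and DAL3, enzymes of aminobutyrate and allantoin use, both rose 3.42-fold (limma adjusted p = 9.15e-05 and 0.000531). CAN1, the arginine permease, had a log2 difference of 1.02 that was not called (limma adjusted p = 0.105) and was 0.31 without the 120 min library.

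Of 29 autophagy genes 12 were called higher (41.4%, against 11.2% of all tested genes) and none lower. ATG8, the ubiquitin-like protein that marks the growing autophagosome, had 6.32, 6.85 and 7.0 log2 RPM at 165, 180 and 195 min, against 4.13, 4.23 and 5.06 log2 RPM at 105, 120 and 135 min. Its late levels were all above its early ones and it rose 4.76-fold (log2 difference 2.25 ± 0.27 SE, limma adjusted p = 0.000125). ATG19 and ATG34, receptors for selected cargo, rose 3.71-fold and 3.05-fold, and ATG7, the enzyme that activates Atg8, 3.68-fold (limma adjusted p = 0.000605, 0.000395 and 0.000228). Of 11 vacuolar proteases and their inhibitors 9 rose, including the protease PRB1 at 4.72-fold and the inhibitors PBI2 and PAI3 at 5.82-fold and 5.51-fold (limma adjusted p = 6.79e-05, 0.00137 and 8.46e-05). The aminopeptidase APE3 and the carboxypeptidase CPS1 had log2 differences of 0.96 and 0.86 and were not called.

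The falls were concentrated in the making of ribosomes, with 239 of the 387 called falls in the lists of cytosolic ribosomal proteins and ribosome biogenesis. Of 137 ribosomal protein genes 131 were called lower and none higher, with a median of -1.68, or -2.0 relative to all genes, and 134 were lower after centring. Their share of the reads was 15.0, 9.98 and 8.37% at 165, 180 and 195 min, against 31.2, 32.9 and 31.2% at 105, 120 and 135 min. The groups were far apart, and the later libraries went on downwards (exact permutation test, two-sided p = 0.1). RPL31B, a protein of the large subunit (chromosome XII, 931065 to 931755, minus strand), had 8.84, 8.12 and 8.18 log2 RPM at 165, 180 and 195 min, against 10.53, 10.84 and 10.39 log2 RPM at 105, 120 and 135 min. It fell 4.61-fold (log2 difference -2.20 ± 0.21 SE, limma adjusted p = 5.58e-05). RPS14B, RPS24B, RPL7B and RPS29A, the others among the 10 largest falls, were 4.72-fold, 4.71-fold, 4.62-fold and 4.58-fold lower (limma adjusted p = 5.93e-05, 0.000173, 7.69e-05 and 4.69e-05). Most of these genes have a near-identical copy, and for 117 of the 137 under 95% of the values were whole reads, so single copies are uncertain while their sum is not touched by reads shared within the list. Of those not called, RPS25A and RPS30A had the largest log2 differences, -0.93 and -0.88.

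Ribosome biogenesis genes, whose products process ribosomal RNA and assemble the subunits, fell by a median of -1.43. Of 138 tested, 108 were called lower and none higher, and 125 were lower after centring. They held 1.06, 1.05 and 1.18% of the reads at 165, 180 and 195 min, against 2.79, 3.04 and 2.17% at 105, 120 and 135 min. HAS1, an RNA helicase of both subunits (chromosome XIII, 850074 to 851591, minus strand), had 4.99, 4.70 and 4.34 log2 RPM at 165, 180 and 195 min, against 7.0, 7.25 and 6.53 log2 RPM at 105, 120 and 135 min. It fell 4.75-fold (log2 difference -2.25 ± 0.23 SE, limma adjusted p = 6.29e-05) without overlap. NSR1, a nucleolar protein needed for processing the RNA of the small subunit (chromosome VII, 806412 to 807656, minus strand), had 6.35, 6.52 and 6.45 log2 RPM at 165, 180 and 195 min, against 8.66, 9.14 and 7.86 log2 RPM at 105, 120 and 135 min. It fell 4.32-fold (log2 difference -2.11 ± 0.26 SE, limma adjusted p = 0.000138), with the early libraries spread more widely than the late ones. NOP13 and FAF1, further factors in the nucleolus, were 4.66-fold and 4.21-fold lower (limma adjusted p = 7.69e-05 and 0.000366). LOC1 and UTP15 both had log2 differences of -0.99 and were not called.

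**Figure D4:**
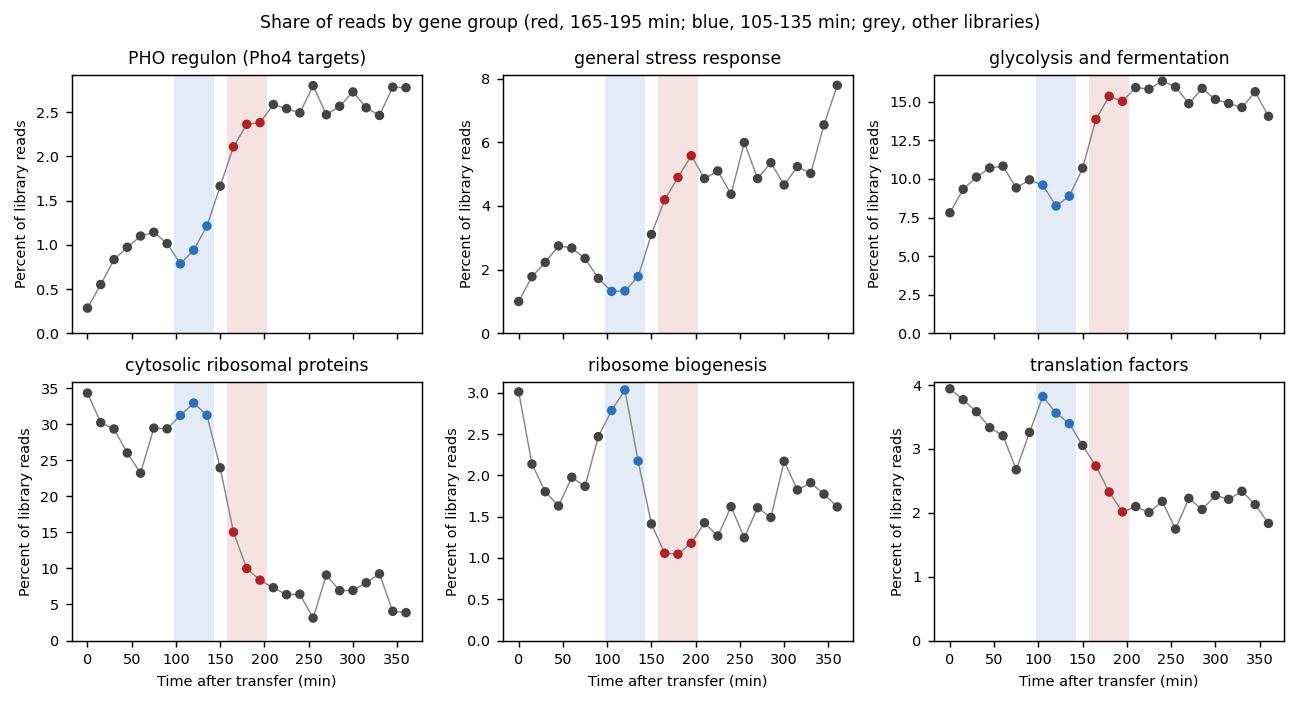
Percent of each library's reads that fell on 6 gene groups against time after transfer to medium without phosphate (min), with the libraries at 165, 180 and 195 min in red, those at 105, 120 and 135 min in blue and the other 19 in grey. Ribosomal proteins took 8.37 to 15.0% of the reads at 165 to 195 min and 31.2 to 32.9% at 105 to 135 min, and PHO, stress and glycolysis genes are higher at 165 to 195 min.

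The polymerases that transcribe ribosomal and transfer RNA genes changed in the same direction. Of 39 genes of the RNA polymerase I and III machinery 15 were called lower, 21 after centring, and 1 higher. RPA190, the largest subunit of polymerase I, had 6.39, 6.19 and 6.14 log2 RPM at 165, 180 and 195 min, against 8.28, 8.47 and 8.0 log2 RPM at 105, 120 and 135 min. It fell 4.02-fold (log2 difference -2.01 ± 0.16 SE, limma adjusted p = 4.69e-05). RPA135, RPA49 and RPA43, of the same enzyme, fell by 1.95, 1.75 and 1.59 on the log2 scale (limma adjusted p = 5.58e-05, 5.93e-05 and 0.000123). The rise, named after its value was seen, was MAF1, the repressor of polymerase III, at 1.34 log2 units. Of 43 translation factors 6 fell (13.95%, against 7.26% of all tested genes) and 1 rose (2.33%, against 11.2%), and 13 were lower after centring. YEF3, the fungal elongation factor that turns over the ribosome, had 11.36, 10.95 and 10.80 log2 RPM at 165, 180 and 195 min, against 12.38, 12.31 and 12.08 log2 RPM at 105, 120 and 135 min. It fell 2.33-fold (log2 difference -1.22 ± 0.22 SE, limma adjusted p = 0.00117), whereas HEF3, its scarce copy, was 3.59-fold higher (limma adjusted p = 0.000214). RBG1, a ribosome-binding GTPase, and GCD10, a subunit of a tRNA methyltransferase, fell 2.73-fold and 2.72-fold (limma adjusted p = 0.000137 and 0.000236). Of 20 tRNA synthetases 4 fell, 8 after centring, led by the proline enzyme YHR020W and the methionine enzyme MES1 (-1.41 and -1.31, limma adjusted p = 0.000819 and 0.000305).

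Nucleotide synthesis had more falls than rises. Of 37 purine and pyrimidine genes 8 were called lower (21.6%) and 5 higher (13.5%), against 7.26% and 11.2% of all tested genes. After centring 11 were lower and 2 higher. Without the 120 min library 3 were higher. URA7, the main CTP synthase (chromosome II, 143989 to 145728, minus strand), had 5.62, 5.48 and 5.26 log2 RPM at 165, 180 and 195 min, against 7.89, 7.78 and 7.23 log2 RPM at 105, 120 and 135 min. It fell 4.54-fold (log2 difference -2.18 ± 0.20 SE, limma adjusted p = 4.69e-05). FUI1, the uridine permease, and URA1, which makes orotate, fell 3.73-fold and 3.17-fold, while URA10, the minor orotate phosphoribosyltransferase, rose 4.10-fold (limma adjusted p = 0.000372, 0.000132 and 0.00232). Of 71 genes of amino acid synthesis 7 rose (9.86%) and 2 fell (2.82%), shares below the 11.2% and 7.26% of all tested genes. After centring 2 rose and 5 fell. Without the 120 min or the 180 min library 4 rose. LEU9 and LYS4, of leucine and lysine synthesis, fell 3.20-fold and 2.65-fold, while GDH3, a minor glutamate dehydrogenase, rose 3.67-fold (limma adjusted p = 5.93e-05, 0.000175 and 0.000242). Of 33 genes of sulfur, methionine and S-adenosylmethionine metabolism 13 rose and 1 fell, and the rises numbered 7 after centring and 8 without the 120 min library. MET28, a coactivator of the sulfur pathway, had 4.92, 5.27 and 5.34 log2 RPM at 165, 180 and 195 min, against 2.37, 1.37 and 4.39 log2 RPM at 105, 120 and 135 min. It rose 5.55-fold (log2 difference 2.47 ± 0.59 SE, limma adjusted p = 0.0061), with early libraries spread far apart. SUL2, a sulfate permease, and STR3, a cystathionine lyase, rose 3.60-fold and 3.56-fold with no value at 135 min (limma adjusted p = 0.00366 and 0.000848). SAM4, which fell 3.07-fold, shares reads with a near copy (limma adjusted p = 0.00113).

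The medians of the cell cycle and meiosis lists lay near the median of all genes, 0.32. The mating list had a lower median, 0.08, with 3 of its 19 genes above the median of all. Of 42 genes of the G1/S transition 3 rose (7.14%, against 11.2% of all tested genes), and 1 after centring or without the 120 min library. The largest rise was that of MNN1, a mannosyltransferase, at 2.58-fold (limma adjusted p = 7.69e-05). The G1 cyclin CLN1 had a log2 difference of 0.82 and was not called. Of 10 histone genes only the linker histone HHO1 rose, 2.56-fold (log2 difference 1.36 ± 0.18 SE, limma adjusted p = 0.000205), and of 25 G2/M genes WSC4, a cell surface sensor, rose 3.07-fold (limma adjusted p = 0.0001) and PHO3, already described, fell. Without the 105 min library 2 G2/M genes rose. RME1, a repressor of meiosis, was the 1 of 38 M/G1 and daughter-cell genes called (1.23, and not called after centring). None of 19 genes of mating type a and pheromone response was called in limma. The largest differences there were -0.51 for the kinase gene FUS3 and 0.47 for the pheromone gene MFA1 (limma adjusted p = 0.0527 and 0.0334). None of 10 early meiosis and sporulation genes was called either, NDT80 having a log2 difference of 0.80.

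Among the remaining lists, rises of modest size depended on the scaling. Of 39 cell wall genes 8 rose (20.5%, against 11.2% of all tested genes), 3 after centring and 4 without the 120 min library. HPF1, a mannoprotein with shared reads, and SPI1, a wall protein of stressed cells, rose 4.63-fold and 3.46-fold, and SED1, the abundant wall protein of resting cells, 2.46-fold (limma adjusted p = 5.58e-05, 0.000125 and 8.21e-05). Of 19 zinc regulon genes 4 rose (21.05%), and 1 was higher after centring or without the 105 min library. Among the 4 were PEP4, the vacuolar protease A, at 3.10-fold and the zinc regulator ZAP1 at 2.15-fold (limma adjusted p = 6.29e-05 and 0.00131). Of 29 iron regulon genes HMX1, a heme oxygenase, was the member called (1.27, or 3.45% of the list), and leaving out 1 library gave 0 to 2. All 38 proteasome genes had differences between 0.50 and 1.14, so that the list's median was 0.74 while only ECM29 and RPN3 were called, neither after centring, and leaving out 1 library gave 1 to 4. Their promoter windows held GGTGGCAAA, the site of the proteasome activator Rpn4, in 57.9% of cases, against 1.25% of all windows. Of 30 ergosterol genes ERG9, the squalene synthase, and HES1, a sterol-binding protein, rose 2.29-fold and 2.20-fold, and of 33 phospholipid genes 5 rose, led by PAH1, the phosphatidate phosphatase, at 2.71-fold (limma adjusted p = 0.000205, 0.013 and 0.0011). The shares that rose were 6.67% of ergosterol and 15.15% of phospholipid genes, against 11.2% of all tested genes. Leaving out 1 library gave 1 to 4 ergosterol genes, and 3 phospholipid genes without the 105, 120 or 195 min library.

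Some genes could not be tested because they were below 10 reads throughout a group. There were 13 genes with a value in all 3 libraries at 165 to 195 min and in none at 105 to 135 min, and 1 gene with the reverse. HBT1, a protein of cell polarity, had 4.23, 4.36 and 5.16 log2 RPM at 165, 180 and 195 min, all above the highest limit of 10 reads at 105 to 135 min, 3.25 log2 RPM. Its mean on the log2 scale was at least 5.38-fold above the mean of the 3 limits. LEE1, a zinc-finger protein, and RRT12, a spore wall protease, were at least 2.92-fold and 2.58-fold higher by the same measure of means, and YMR118C and KRE29 at least 2.57-fold and 2.55-fold. RRT12 and YMR118C were below the highest limit at 165 min, both at 3.03 log2 RPM. KRE29 lies on the minus strand 3 bases beyond the end of PHM8, and whether counting used the strand was not given, so reads running on from PHM8 cannot be told apart from its own. The gene listed only at 105 to 135 min, named after its values were seen, was SRO9, an RNA-binding protein, at 3.31, 3.72 and 3.49 log2 RPM, so that by the means its level at 165 to 195 min was at least 1.76-fold lower.

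The change was under way at 150 min, and a smaller one in the same direction had been largest at 45 min and had shrunk by 90 min. With the mean at 105 to 135 min as 0% and the mean at 165 to 195 min as 100%, the called rises stood at a median of 61.6% and the called falls at 57.3% at 150 min. At that time 552 of 592 rising genes were above all 3 libraries of 105 to 135 min, and 368 of 387 falling genes were below them. These genes were chosen in part by their levels at 105 to 135 min, which favours such gaps. At 45 min 78.7% of the rises and 86.3% of the falls also lay beyond these 3 libraries, against 9.44% and 1.55% at 0 min. Shares over all tested genes at 150 min were not computed. An earlier excursion in the same direction had its largest medians at 45 min, 48.2% for the rises and 42.7% for the falls, and by 90 min these stood at 22.4% and 9.76%. Medians near 0% at 105 to 135 min and near 100% at 165 to 195 min follow from the scale. The mean over 30 to 60 min reached the mean of 165 to 195 min in 13 of 572 rising genes and in 0 of 387 falling genes. PGM2 had 6.41, 7.43 and 6.92 log2 RPM at 30, 45 and 60 min, between its levels at 105 to 135 min and at 165 to 195 min. RPS14B had 8.94, 8.79 and 8.73 log2 RPM at the same times, within its range at 105 to 135 min. Most called falls were instead below that range at 45 and 60 min (86.3 and 74.9%). Only 8.33% of the values of RPS14B were whole reads, so its own level is uncertain.

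Within the later group most called genes stood further along at its end than at its start, while the median of the ribosome biogenesis list did not. Among genes with values at all 3 times, 456 of 587 called rises and 244 of 379 called falls stood further along at 195 min than at 165 min, and the median change between these times was 0.28 log2 units over all 587 and -0.25 over all 379. At both steps, from 165 to 180 and from 180 to 195 min, 293 of the 587 rises moved up and 167 of the 379 falls moved down. The same shares over all tested genes were not computed, so these counts do not set the called genes apart from the rest. The ribosome biogenesis genes had medians of -1.45, -1.42 and -1.28 log2 units at 165, 180 and 195 min, relative to their own means at 105 to 135 min. Afterwards the rises and the falls parted. From 210 to 360 min the called rises kept medians between 100.8 and 129%, while the called falls lay between 46.7% at 300 min and 104% at 255 min. Ribosomal proteins held 3.12 to 9.25% of the reads at 210 to 360 min, whereas ribosome biogenesis genes held 1.24 to 2.17%, with the highest share at 300 min. The libraries at 255, 345 and 360 min share the low ADA2 level of the 120 min library, at 8.01, 8.33 and 8.45 log2 RPM, and the 345 min library is the shallowest at 0.147 M reads. The part of these properties in the later course was not tested.

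**Figure D5:**
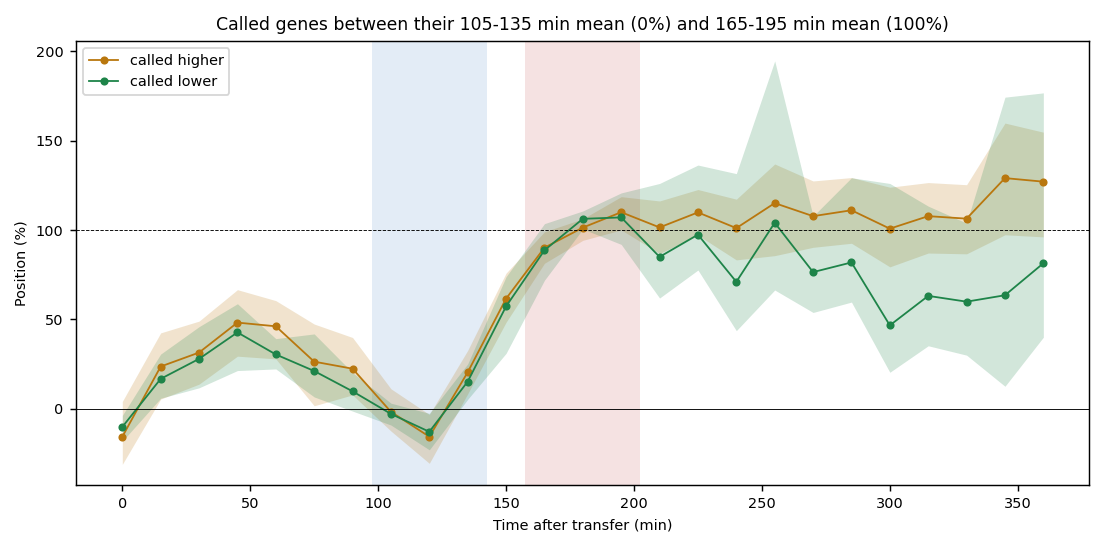
Median position (line) and middle range from the 25th to the 75th percentile (band) of the 595 genes called higher and the 387 called lower, on a scale where each gene's mean at 105 to 135 min (blue strip) is 0% and its mean at 165 to 195 min (red strip) is 100%, against time after transfer (min). The lines stand at 48.2 and 42.7% at 45 min, at 22.4 and 9.76% at 90 min and at 61.6 and 57.3% at 150 min. Values near 0% in the blue strip and near 100% in the red strip follow from the scale.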

How the data were processed

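RNA was sequenced in 25 samples of 1 yeast strain taken at 0 min in high phosphate and every 15 min in medium without phosphate for 6 hours. Per the submitters' processing notes, Bowtie aligned the reads to build R64; how reads were counted, and whether by strand, is not given in the sources used here. Values deposited by the authors are log2 RPM, which raised to the power of 2 sum to 1000000 per library. The lowest value of each library equals 10 reads, and under 200 reads 94.9 to 97.5% of values per library were within 0.02 of a whole read number. Of 6701 rows, 53 without a usable single name were left out, with at most 0.0218% of a library's reads. Of the 6648 names, 5962 matched the RefSeq annotation of R64.

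Groups follow the sampling times in the labels. The groups were compared with limma 3.58.1 in R 4.3.3 (lmFit, eBayes with trend) on the deposited log2 values of the 6 libraries, missing values left missing, with Benjamini-Hochberg adjustment over 5327 genes; the median residual SD was 0.239. Genes were called at adjusted p under 0.05 and an absolute difference of at least 1. The code was tested on simulated data. A fold is 2 to the power of the difference. Named genes were the 10 largest called rises and falls with a standard symbol and 6 values, the PHO regulon, up to 4 called and 2 uncalled members of each other list by size, and genes listed in 1 group only. The 34 lists and the ribosomal protein groups, the comparison and the members were chosen with earlier results of these data known. Whole-read shares, read shares of lists and promoter motifs were computed with Python 3.11.15. PCR copies of a read are not separate molecules, so read numbers give counting error at best. Alternatives were other scalings, filters, weights, a model of all 25 libraries and each library left out. A count model was not run, since the deposited values are logarithms.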

Additional observations from a re-analysis of the deposited data

How the results depend on the processing

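The number of genes called lower stayed within 1.5 times 387 in all 17 alternative settings, between 302 and 522. The number called higher did not. Against 595 of 5327 it was 339 after median centring, 362 after quantile normalization and 326 after scaling by trimmed means of log ratios, of as many tested. It was 255 of 2467 genes with a mean of at least 6 log2 RPM and 392 of 5567 on log2(RPM + 10) values. With median centring and without the 120 min library it was 261 of 5045. The level filter's 302 falls are also of 2467 genes. By share of genes tested, that filter gave more falls than the full comparison and nearly as many rises. The causes were not tested, except that the level filter tests fewer genes. Leaving out 1 library at a time gave 448 to 738 genes higher and 359 to 435 lower, the fewest in both without 120 min and the most without 135 min. Median centring without the 120 min library was added after that library had been seen to stand apart. Of 193 tested genes named in the text by rule, 115 were called, 85 of them in every setting that tested them, and no called gene turned round. Uncalled genes that changed sign were PCL8 (-0.092 with centring and without 120 min) and SPO11 (-0.11 with quantile normalization). No paired analysis was possible because the labels carry no replicate numbers. Genes near 10 reads, most in the shallow 195 and 135 min libraries, are limited by depth. With weights from voom on genes with 6 values, 578 were higher and 382 lower.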
